A study of Mus musculus with 6 samples.

Results

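In the proximal forelimb (PFL) of wild-type B6CBAF1 mouse embryos at E12.5, the 2 marks that compete for lysine 27 of histone H3, acetylation (H3K27ac) and trimethylation (H3K27me3), were set against each other. All regions of the PFL H3K27ac and PFL H3K27me3 peak lists on chromosomes 1 to 19 and X were taken, and lines with the same interval were counted as 1 region. This gave 69503 H3K27ac regions and 13873 H3K27me3 regions, together 83376 of the 379158 regions in the 8 peak lists of the series. The series comprises 6 ChIP-seq samples, with H3K27ac, H3K27me3 and CTCF each profiled in PFL and in the distal forelimb (DFL) of the same genotype, strain and stage, and 2 further lists for HOXA13 and HOXD13 in forelimbs of an earlier stage. Each sample was 1 library of pooled tissue, called without an input control, so no test between marks was possible and no p-value is given. Intervals in brackets are 95% Wilson intervals and cover counting error only.

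Acetylation of H3K27 is added by the coactivators Crebbp and Ep300 and is found at active promoters and enhancers. Trimethylation of the same residue is added by Polycomb repressive complex 2, with Ezh2 or Ezh1 as its catalytic subunit, and covers CpG-rich starts of developmental genes that are silent in a tissue. A single histone tail cannot carry both, but the forelimb holds cartilage, connective tissue, muscle, vessels, nerve and skin, so whether the marks at 1 promoter lay on the same allele, on both alleles of a cell or in different cells cannot be told apart here.

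A protein-coding gene was assigned a mark if at least 1 base of a region fell in the window of 2 kb on each side of a basic transcript's first base. Of 21701 genes with a unique symbol, 10584 had H3K27ac alone (48.8%), 2787 had both marks (12.8%), 1594 had H3K27me3 alone (7.35%) and 6736 had neither (31%). Of the 4381 promoters with H3K27me3, 63.6% (62.2 to 65.0%) also had H3K27ac. This share was 38.0% with −log10 q of at least 10 for both marks and 24.4% with the H3K27ac list reduced to the number of H3K27me3 regions. In the other direction, 20.8% (20.2 to 21.5%) of the 13371 promoters with H3K27ac had H3K27me3, and 19.1% (18.3 to 19.99%) of those without H3K27ac did. Most promoters without H3K27ac had neither mark and were poor in CpG, so these 2 shares do not compare like promoters. Counts for CpG-rich promoters are given below.

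To show what the DNA of the 4 states looks like, 7 promoters are printed from 250 bp before to 50 bp after the RefSeq start (build GRCm38.p6), 5′ to 3′, with every CG dinucleotide in capitals. Aida, Lrr1 and Eomes were the first genes with a sequence in the table in the rankings of promoters with both marks, H3K27ac alone and H3K27me3 alone, Tnmd was the first such member of the gene lists with neither mark, and Adarb1, Meis1 and Olig2 were added after the values were seen. The regions behind both marks at Aida were found in all 8 lists, with summits 1935 bp (H3K27ac) and 1870 bp (H3K27me3) downstream of the nearest start of the gene, and the RefSeq start used lay 470 bp from the annotated 5′ end. Adarb1 was the next promoter in that ranking outside such regions.
Adarb1 (both, chr10:77418224-77418523, minus strand, 46 CG): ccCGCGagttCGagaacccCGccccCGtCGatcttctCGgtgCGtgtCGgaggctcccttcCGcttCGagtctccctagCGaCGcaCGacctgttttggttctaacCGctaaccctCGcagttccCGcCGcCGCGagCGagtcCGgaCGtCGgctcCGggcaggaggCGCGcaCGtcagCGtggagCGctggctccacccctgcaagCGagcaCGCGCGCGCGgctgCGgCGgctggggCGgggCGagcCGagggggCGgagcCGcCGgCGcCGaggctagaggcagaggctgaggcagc
Meis1 (both, chr11:19018920-19019219, minus strand, 15 CG): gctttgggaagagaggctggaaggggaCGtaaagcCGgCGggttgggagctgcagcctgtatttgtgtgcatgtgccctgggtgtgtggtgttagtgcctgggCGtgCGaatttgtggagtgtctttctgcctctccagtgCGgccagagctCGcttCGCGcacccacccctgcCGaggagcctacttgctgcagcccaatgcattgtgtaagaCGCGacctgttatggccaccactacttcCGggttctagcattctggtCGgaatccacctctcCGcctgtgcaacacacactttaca
Aida (both, chr1:183296810-183297109, plus strand, 20 CG): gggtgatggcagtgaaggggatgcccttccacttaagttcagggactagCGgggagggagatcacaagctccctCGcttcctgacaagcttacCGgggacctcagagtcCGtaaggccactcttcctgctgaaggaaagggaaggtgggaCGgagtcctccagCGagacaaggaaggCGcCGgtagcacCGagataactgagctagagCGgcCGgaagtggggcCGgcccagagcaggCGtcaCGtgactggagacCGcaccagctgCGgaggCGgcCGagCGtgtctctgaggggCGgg
Lrr1 (H3K27ac alone, chr12:69168564-69168863, plus strand, 21 CG): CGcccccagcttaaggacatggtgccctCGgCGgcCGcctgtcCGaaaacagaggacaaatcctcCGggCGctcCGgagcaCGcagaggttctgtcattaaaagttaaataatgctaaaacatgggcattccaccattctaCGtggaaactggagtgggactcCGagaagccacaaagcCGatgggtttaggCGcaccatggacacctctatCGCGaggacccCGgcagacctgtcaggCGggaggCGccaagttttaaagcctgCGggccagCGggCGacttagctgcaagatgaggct
Eomes (H3K27me3 alone, chr9:118477939-118478238, plus strand, 10 CG): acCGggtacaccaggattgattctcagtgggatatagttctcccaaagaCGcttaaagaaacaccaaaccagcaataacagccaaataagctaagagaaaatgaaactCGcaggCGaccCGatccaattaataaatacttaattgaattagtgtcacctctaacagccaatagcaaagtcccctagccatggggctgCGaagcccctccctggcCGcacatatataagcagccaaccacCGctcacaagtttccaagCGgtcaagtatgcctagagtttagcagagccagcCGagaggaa
Olig2 (neither, chr16:91225300-91225599, plus strand, 25 CG): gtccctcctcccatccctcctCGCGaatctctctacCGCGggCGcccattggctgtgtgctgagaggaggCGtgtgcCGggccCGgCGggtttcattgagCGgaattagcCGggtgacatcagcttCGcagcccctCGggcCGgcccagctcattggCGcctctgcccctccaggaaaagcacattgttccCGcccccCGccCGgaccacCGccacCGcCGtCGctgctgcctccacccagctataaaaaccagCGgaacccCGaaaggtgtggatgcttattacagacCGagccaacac
Tnmd (neither, chrX:133850758-133851057, plus strand, 4 CG): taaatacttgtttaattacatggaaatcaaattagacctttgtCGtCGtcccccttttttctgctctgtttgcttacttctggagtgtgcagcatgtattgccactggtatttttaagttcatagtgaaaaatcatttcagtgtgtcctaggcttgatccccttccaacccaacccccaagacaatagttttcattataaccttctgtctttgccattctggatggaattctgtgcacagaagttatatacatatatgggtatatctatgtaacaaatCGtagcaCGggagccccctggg
Lrr1, which encodes a substrate receptor of a ubiquitin ligase, and Adarb1, an RNA-editing deaminase, differ in state but are both rich in CG. Eomes, a T-box factor of early mesoderm and cortex, and Olig2, a factor of motor neurons and oligodendrocytes, carry CG as well, whereas Tnmd, a membrane protein of tendon cells, has almost none. Among the 16416 promoters with a sequence, 95.3% held at least 1 CG, with a median of 21 per 300 bp at promoters with both marks, 21 with H3K27ac alone, 15 with H3K27me3 alone and 2 with neither.

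The same order held for CpG content over the 500 bp on each side of the annotated 5′ end. The median ratio of observed to expected CpG was 0.724 with H3K27ac alone, 0.665 with both marks, 0.575 with H3K27me3 alone and 0.164 with neither. Promoters with at least 50% GC and a ratio of at least 0.6 were called CpG-rich. They made up 67.2% (66.3 to 68.1%) of the promoters with H3K27ac alone, 60.5% (58.6 to 62.3%) of those with both, 45.4% (43.0 to 47.9%) of those with H3K27me3 alone and 2.66% (2.30 to 3.07%) of those with neither. Promoters with both marks therefore lay between the 2 single-mark classes, and the class with neither mark stood apart from the other 3. In counts, 7117 CpG-rich promoters had H3K27ac alone, 1685 had both marks, 724 had H3K27me3 alone and 179 had neither. Within the CpG-rich class, most promoters without H3K27ac thus had H3K27me3 (724 against 179), whereas most with H3K27ac lacked it (7117 against 1685).

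**Figure D1:**
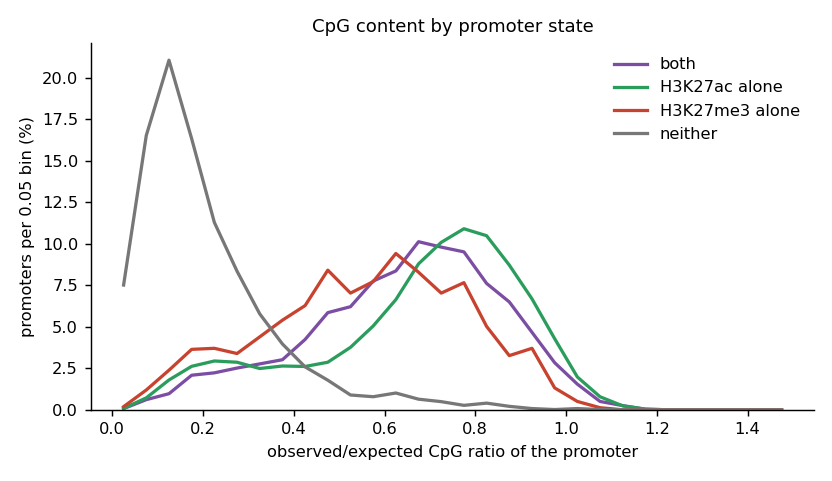
Observed/expected CpG ratio (x axis) of the promoters of each state, drawn as the percentage of that state's promoters per 0.05 bin (y axis). The curves of both, H3K27ac alone and H3K27me3 alone overlap widely with medians of 0.665, 0.724 and 0.575, while promoters with neither mark peak at low ratios with a median of 0.164.

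Where both marks were present, each had a lower −log10 q than where it stood alone, and H3K27ac also had a lower fold. The median −log10 q of the strongest H3K27ac region was 26.8 with both marks and 101 with H3K27ac alone, and the median fold over local background was 4.53 against 6.77. For H3K27me3 the median −log10 q was 11.3 with both marks and 17.4 alone, although the median fold was slightly higher with both (3.62 against 3.43). When the 13371 acetylated promoters were ordered by H3K27ac −log10 q and split into 5 equal groups, the share that also had H3K27me3 fell from 55.4% (53.5 to 57.3%) in the lowest group to 29.4%, 9.65%, 5.42% and 4.38% (3.66 to 5.22%) in the highest. Ordered by H3K27me3 instead, the share that also had H3K27ac fell from 79.6% (76.8 to 82.1%) to 50.5% (47.2 to 53.8%). The decline was thus much steeper along H3K27ac, and even the strongest H3K27me3 promoters were acetylated about as often as not.

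**Figure D2:**
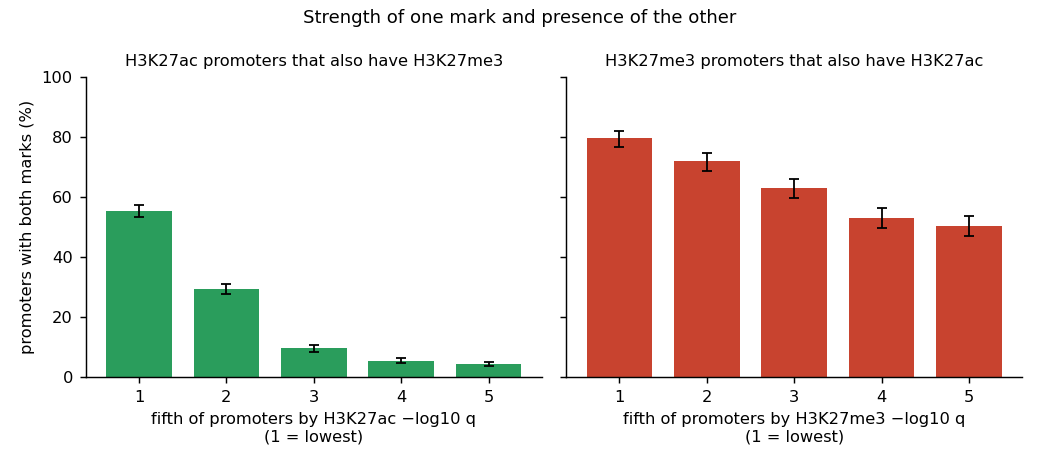
Percentage of promoters with both marks (y axis) among promoters with H3K27ac (left) or H3K27me3 (right), in 5 equal groups ordered by the −log10 q of that mark (x axis, 1 is the lowest); error bars are 95% Wilson intervals. On the left the share drops from 55.4% to 4.38%, and on the right from 79.6% to 50.5%.

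The local background behind these folds differed between the marks. The background that the peak caller used was solved for each region from its fold and p-value and expressed as a multiple of the low level of that library (the 1st percentile over its regions). Its median was 1.24 for H3K27ac regions and 3.13 for H3K27me3 regions, and at promoters with H3K27me3 alone it reached 5.03, against 2.47 with both marks. A fold is therefore relative to a local level that was itself raised in H3K27me3-rich places, and folds are not compared between genes as amounts of a mark. The part of this background in the states below was not tested.

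The marks were also arranged differently around the start. At promoters with both marks, the summit of the strongest H3K27ac region lay a median of 286 bp from the nearest start and that of H3K27me3 838 bp away. H3K27ac was the closer of the pair at 2280 of the 2787 promoters (81.8%). The H3K27ac summit was hardly displaced relative to promoters with H3K27ac alone (255 bp), whereas the H3K27me3 summit lay farther out than at promoters with H3K27me3 alone (589 bp). Within 500 bp of a start were 25.2% of the H3K27me3 summits with both marks and 42.2% of those with H3K27me3 alone. Summits of both marks were more often inside the gene than upstream, at 67.7% of these promoters for H3K27ac and 67.1% for H3K27me3. Both summits lay inside the gene at 1210 promoters (43.4%). They lay on opposite sides of the start at 677 promoters with H3K27ac inside and at 660 with H3K27me3 inside.

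**Figure D3:**
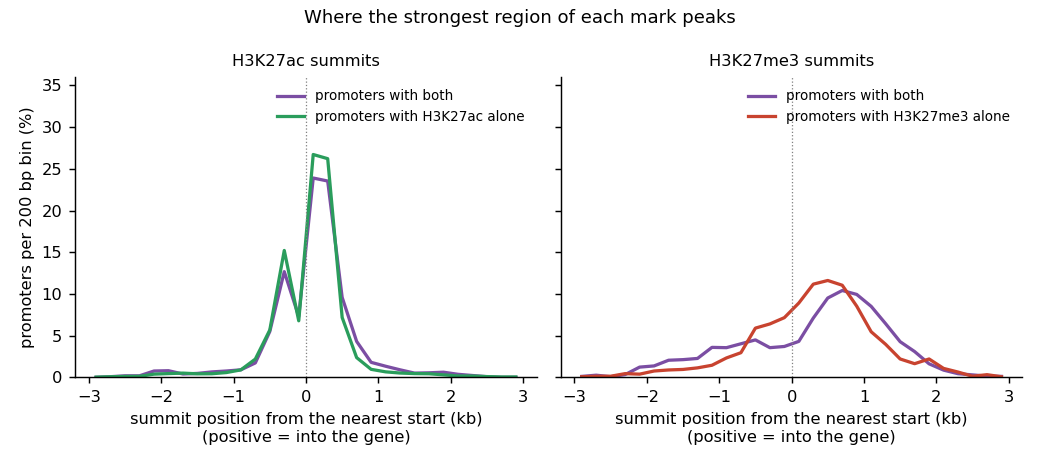
Position of the strongest H3K27ac (left) and H3K27me3 (right) summit relative to the nearest start in kb (x axis, positive into the gene), as the percentage of promoters per 200 bp bin (y axis). The H3K27ac curves of promoters with both marks and with H3K27ac alone nearly coincide, while the H3K27me3 summits of promoters with both marks lie farther out, a median of 838 bp away, against 589 bp with H3K27me3 alone.

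The regions themselves overlapped by at least 1 bp at 1842 of the 2787 promoters (66.1%, 64.3 to 67.8%). At the other 945 they were separated by a median gap of 433 bp (quartiles 202 and 871 bp). At 2687 promoters both marks lay within 2 kb of the same start, and at 100 they were met only at different starts of the gene. Hpse2, which encodes a heparanase-like protein, held the longest single overlap (2456 bp). Those at Shisa3 (1727 bp), Sstr1, a somatostatin receptor (1691 bp), Pthlh, the parathyroid hormone-like signal of cartilage, Dkk2, a secreted Wnt modulator (1605 bp), Egfr, the EGF receptor (1595 bp) and Igfbp3, an IGF-binding protein (1521 bp), also lay at or close to the start. Others lay away from starts. An overlap of 1592 bp lay inside Col8a2, 13878 bp from the start, and 1 of 1589 bp lay outside genes, 22052 bp from the start of Cryba4. A 1935 bp overlap on chromosome 17 was in all 8 lists.

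Genes with both marks were longer and more often had several starts. Their median length was 41.2 kb, against 22.7 kb with H3K27ac alone, 21.6 kb with H3K27me3 alone and 7.89 kb with neither. Another coding start lay within 4 kb of 13.5% of them, compared with 26.02% for H3K27ac alone and 8.09% for H3K27me3 alone. Since any start counted, genes with more starts had more chances. The share with both marks was 10.9% of 10607 genes with 1 start, 12.3% of 6437 with 2 and 17.9% of 4657 with 3 or more.

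The states were then compared with regions of CTCF, an insulator and loop-forming protein, and of the HOX13 proteins, which pattern the distal limb. A CTCF region of PFL lay within 2 kb of 51.6% (49.7 to 53.5%) of promoters with both marks, 41.1% with H3K27ac alone, 38.8% with H3K27me3 alone and 8.002% with neither. With windows at the annotated 5′ end only, an alternative added after the values were seen, the shares were 46.7% (44.7 to 48.7%), 39.5%, 37.1% and 7.91%. In the CpG-rich subset of those windows they were 48.0% (45.6 to 50.4%), 41.9% (40.7 to 43.0%), 41.1% and 12.6%. HOXA13 or HOXD13 regions of the earlier forelimb followed H3K27ac instead, and lay at 57.2% of promoters with H3K27ac alone, 50.02% with both, 21.1% with H3K27me3 alone and 5.20% with neither. With the annotated 5′ end only, the first 3 of these shares were 55.8%, 44.6% and 19.1%.

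Gene lists for the limb and for other tissues were laid over the 4 states, and each count is set against the share of all promoters given above. The 26 housekeeping genes and all 78 mitochondrial ribosomal protein genes had H3K27ac alone. Of 83 cytosolic ribosomal protein genes, 80 had H3K27ac alone, and of 394 Zfp zinc finger genes 323 did. At the other end, 1124 of 1133 olfactory receptors, 325 of 327 vomeronasal receptors and all 64 defensins had neither mark. Lists of limb regulators and of signalling genes had larger shares with both marks than the 12.8% of all promoters. As a check of the tissue label, all but 3 of 26 proximal limb factors had H3K27ac at the promoter, but so did all but 3 of 24 distal limb factors, so promoter H3K27ac alone did not separate them.

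**Figure D4:**
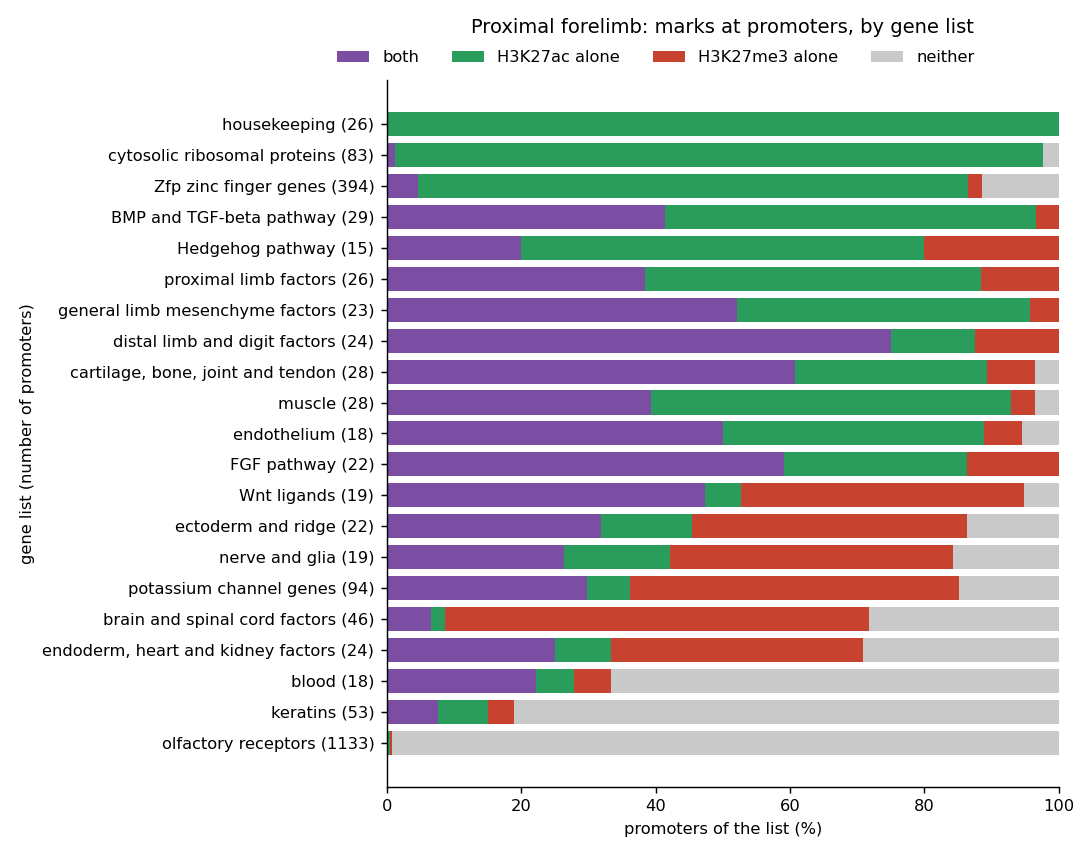
Percentage of promoters in each of the 4 states (x axis) for 21 gene lists (y axis, number of promoters in brackets). Housekeeping and ribosomal protein genes are almost wholly H3K27ac alone. Most promoters of the limb, BMP, Hedgehog and FGF lists have both marks or H3K27ac alone, in proportions that vary by list. Wnt ligands differ, with 9 both, 8 H3K27me3 alone and 1 H3K27ac alone. Brain and spinal cord factors are mostly H3K27me3 alone, and nearly all olfactory receptors have neither.

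Among 26 proximal limb factors, 13 had H3K27ac alone, 10 had both marks and 3 had H3K27me3 alone. Both marks were found at Meis1 and Meis2, homeodomain factors of the proximal limb, at their partner Pbx3, at Shox2, a regulator of upper arm growth, and at Irx3, Irx5, Alx1, Alx4, Osr2 and Pkdcc. At Meis2 the H3K27ac fold was 2.36 (−log10 q 9.89) and the H3K27me3 fold 2.02 (9.46), in overlapping regions. At Meis1 the H3K27ac −log10 q was 62.9 and the H3K27me3 −log10 q only 2.71, with a gap of 1624 bp between the regions. H3K27ac alone was found at the posterior Hox genes Hoxa9, Hoxa10, Hoxa11, Hoxd9, Hoxd10 and Hoxd11, at Pbx2, and at Tbx15, Tbx18, Osr1, Pax9 and Emx2. Meis3, Pax1 and Zbtb16 had H3K27me3 alone, with folds of 3.12, 1.81 and 2.83.

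Of the 24 genes of the distal limb and digit list, 18 had both marks in this proximal tissue. They included Hoxd13, Hoxd12 and Evx2 of the HoxD cluster, the Sal-like factors Sall1 and Sall4, the homeobox genes Lhx2, Lhx9, Msx2, Dlx5 and Dlx6, Hand2, and the signalling genes Grem1, Bmp2, Bmp4, Jag1 and Cyp26b1, which encodes a retinoic acid-degrading enzyme. Hoxd13 had an H3K27ac fold of 3.07 (−log10 q 25.4) and an H3K27me3 fold of 1.86 (7.83). At Bmp4 the −log10 q was 15.6 for H3K27ac and 23.8 for H3K27me3, and at Sall4 2.82 and 9.15. Hoxa13, Msx1 and Bmp7 had H3K27ac alone. Shh, the posterior signal of the limb bud, Fgf8, the signal of the apical ridge, and Tfap2c had H3K27me3 alone, with folds of 1.65, 1.75 and 1.77.

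Of 23 general limb mesenchyme factors, 12 had both marks, 10 had H3K27ac alone and Hand1 alone had only H3K27me3. Twist1, Twist2, Tbx3, Fgf10, Etv4, Etv5, Snai1, Zeb2 and Gli1 were among those with both, and Prrx1, Tbx5, Lmx1b, Gli2, Gli3, Ptch1 and Snai2 among those with H3K27ac alone. At Snai1, a repressor of epithelial genes, the −log10 q was 18.9 for H3K27ac and 21.02 for H3K27me3, and at Etv4, a target of FGF signalling, 72.3 and 8.02. A −log10 q grows with the depth of its library, so these values do not rank the marks against each other.

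These counts of both marks leaned on weak H3K27me3 regions, and some H3K27ac regions in the lists were weak as well. With a −log10 q of at least 5 for both marks, 6 proximal, 13 distal and 8 general limb factors had both, and with at least 10 these numbers were 0, 3 and 2. The share of all promoters with both marks was 9.13% and 4.77% under these limits, so at the stricter one no proximal limb factor was left in a class that held 4.77% of all promoters. Under the stricter limit 16 proximal, 16 distal and 19 general factors had H3K27ac alone. Neither mark was left at 7 proximal, 5 distal and 2 general factors, against 0 in each list without the limit. The H3K27me3 background multiple at limb factors with both marks had a median of 13.01 in the proximal list, 10.1 in the distal list and 2.54 in the general list.

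Differentiation genes of the tissues inside the limb divided within each list. In the list for cartilage, bone, joint and tendon, 17 of 28 had both marks. They included Sox9, Sox5 and Sox6, the factors that drive cartilage formation, Runx2 and Sp7 of bone, Acan, which encodes the main proteoglycan of cartilage, and Erg and Wnt9a of the joint. Col2a1, the main collagen of cartilage, had H3K27ac alone, as did Col9a1, Col11a1, Hapln1, Gdf5 and Scx. Ihh, the signal of maturing cartilage cells, and Barx1 had H3K27me3 alone. Of 28 muscle genes 15 had H3K27ac alone, among them the factors Myog, Myf5 and Myf6 and the contractile genes Ttn, Actc1, Tnnt1, Tnnt2, Tnnt3, Myh3 and Myh8. Another 11 had both, among them Myod1, Met, Des, Msc and Pax7. Pax3, a factor of migrating muscle precursors, had neither within 2 kb, and its nearest H3K27me3 region was 2276 bp away.

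In the endothelial list, 9 of 18 had both marks. At Kdr, the main VEGF receptor, the −log10 q was 18.01 for H3K27me3 and 16.3 for H3K27ac, and at Flt1 7.46 and 4.45. Sox7, Sox17, Sox18, Tal1 and Lmo2 were in this group too, whereas Pecam1, Cdh5, Tek, Emcn, Eng, Fli1 and Egfl7 had H3K27ac alone. Only 6 of 18 blood genes had any mark, with both at Klf1, Epor and Runx1 among others. Among 22 genes of ectoderm and ridge, 9 had H3K27me3 alone, including Cdh1 and Epcam, adhesion genes of epithelia, Dlx3, Esrp1 and Wnt7a. Another 7 had both, including Grhl2, Esrp2, Wnt3, Krt8 and Krt18. Krt14 and Trp63 of basal epidermis and En1 of ventral ectoderm had H3K27ac alone, at −log10 q between 7.41 and 9.54. Of 19 nerve and glia genes, 8 had H3K27me3 alone, among them Sox10, Tubb3, Elavl3, Stmn2 and Syt1.

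Brain and spinal cord factors were mostly without H3K27ac. Of 46, 29 had H3K27me3 alone, 13 had neither mark, 3 had both (Zic1, Zic2 and Otx1) and only Pou3f3 had H3K27ac alone. The 29 had low folds, from 1.41 at Neurod2 to 2.42 at Dbx2 with a median of 1.78, over a background multiple that ran from 11.2 to 26.6. With a −log10 q of at least 10, only 9 had H3K27me3 alone and 35 had neither. Of 94 potassium channel genes, which act in nerve and muscle, 46 had H3K27me3 alone (median fold 3.19, median background multiple 5.83), 28 had both and 6 had H3K27ac alone.

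The 13 brain and spinal cord factors with neither mark included Gbx2, Nkx2-2, En2, Lhx5, Sox1, Sox14, Olig3, Pou4f1, Olig2, Six3, Pax2 and Sox3. Each of the 13 had an H3K27me3 region within 10 kb of the gene's annotated 5′ end, from 441 to 6760 bp away (median 3099 bp), and none had an H3K27ac region in that distance. Of all 6736 promoters with neither mark, 6.47% had H3K27me3 within 10 kb, and of the 1124 olfactory receptors 1.07% did. Their nearest H3K27me3 region stood on a background multiple between 8.13 and 23.0 (median 20.4), compared with a median of 1.91 for all promoters with neither mark and 1.53 for the olfactory receptors. Distances and CpG content refer to the gene's annotated 5′ end, which can belong to a transcript outside the basic set, as at Nkx2-2 (441 bp). With 5 kb windows none of the 46 had neither mark and 41 had H3K27me3 alone. The median CpG ratio of the 13 factors with neither mark was 0.723, against 0.164 for all promoters with neither mark. Of 7 endoderm, heart and kidney factors with neither mark, 6 lay within 10 kb of H3K27me3 as well, Hnf4a being the exception at 24444 bp.

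The 4 Hox clusters differed in their called states. In HoxA, 7 of 11 genes had H3K27ac alone, 3 had both, among them Hoxa2 and Hoxa7, and Hoxa6 had H3K27me3 alone. From Hoxa9 to Hoxa11 the H3K27ac folds were only 1.36 to 1.43, but over background multiples of 20.95 at Hoxa9, 24.7 at Hoxa10 and 21.6 at Hoxa11, and between 5004 and 6868 bp of the surrounding 10 kb on each side were acetylated. In HoxD, Hoxd9, Hoxd10 and Hoxd11 had H3K27ac alone, between Hoxd12 and Hoxd13 on the one side and Hoxd8 on the other, which had both. Farther along, Hoxd3 had both, and Hoxd4 and Hoxd1 had H3K27me3 alone. In HoxB, 7 of 10 had H3K27me3 alone and only Hoxb2 had H3K27ac (fold 3.88) beside H3K27me3 (1.79). In HoxC, 5 of 9 had neither mark, Hoxc8 and Hoxc11 had H3K27me3 alone and Hoxc5 and Hoxc6 had both. H3K27me3 alone had a median −log10 q of 5.06 in HoxB and 3.28 in HoxC. The median background multiples behind it were 20.4 and 20.45. With a −log10 q of at least 10, 8 of 10 HoxB and all 9 HoxC genes had neither mark. Under that limit 5 of 11 HoxA and 3 of 9 HoxD genes had neither. Of the hindlimb factors, Pitx1 had neither mark at its basic start, although H3K27me3 lay 252 bp from the 5′ end of a longer annotated transcript, and Tbx4 had both in regions 5434 bp apart.

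Within the signalling pathways, genes of different roles often differed in state, but so did genes of the same role. In the Hedgehog pathway the 3 ligand genes Shh, Ihh and Dhh had H3K27me3 alone, at folds of 1.65, 1.803 and 1.94. The receptor Ptch1, the transducer Smo, the coreceptors Boc, Cdon and Gas1, the release factor Disp1 and the regulators Gli2, Gli3 and Sufu had H3K27ac alone. Hhip and Gli1, which are raised by Hedgehog signalling itself, had both. In the BMP and TGF-beta pathway, 12 of 29 had both marks, among them the extracellular antagonists Nog, Grem1, Chrd and Fst, the ligand genes Bmp2, Bmp4, Gdf6 and Gdf10, and Bmpr1b. The receptors Bmpr1a, Bmpr2, Tgfbr1 and Tgfbr2 and the signal transducers Smad1 and Smad5 had H3K27ac alone, and Bmp6 had H3K27me3 alone. H3K27ac alone was also found at the ligand genes Bmp5, Bmp7, Gdf5, Tgfb2, Tgfb3 and Inhba. Both marks were also found at Tgfb1 and Smad9. Id3, a target of BMP signalling, had the highest H3K27me3 fold of the pathway (10.8, −log10 q 55.2) in a region that overlapped its H3K27ac.

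In the FGF pathway, 13 of 22 had both marks. The mesenchymal ligand gene Fgf10, the receptor genes Fgfr2, Fgfr3 and Fgfr4, and Spry1 and Spry4 were in this group. Fgfr1, Dusp6, Spry2 and Fgf7 had H3K27ac alone. Of the ridge ligand genes, Fgf4, Fgf8 and Fgf17 had H3K27me3 alone, whereas Fgf9 had both marks. Of 19 Wnt ligand genes, 9 had both marks and 8 had H3K27me3 alone, and Wnt5a, which is active in limb mesenchyme, was the only one with H3K27ac alone. None of 10 Fzd receptor genes had H3K27me3 alone, and 6 had both. In the Notch pathway 10 of 19 had both, including Notch1, Jag1, Dll1, Dll4, Hey1 and Hey2. In the retinoic acid pathway, the synthesising enzymes Aldh1a2 and Aldh1a3 and the degrading enzymes Cyp26a1 and Cyp26c1 had H3K27me3 alone. The synthesising enzyme Aldh1a1 had neither mark. Rdh10 and the receptors Rara, Rarg, Rxra and Rxrb had H3K27ac alone. The receptors Rarb and Rxrg and the degrading enzyme Cyp26b1 had both marks. The cell cycle inhibitors Cdkn2a and Cdkn2b, classical Polycomb targets, had H3K27me3 alone, and Cdkn1a, Cdkn1c and Cdkn2c had both.

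The genes for the machinery of the marks were acetylated with 1 exception. Ezh1, Ezh2, Eed, Suz12, Jarid2 and Mtf2 of Polycomb repressive complex 2, Rnf2, Ring1 and Pcgf2 of complex 1, the demethylases Kdm6a and Kdm6b and the acetyltransferase gene Ep300 had H3K27ac alone. Bmi1, Cbx2, Cbx8 and Crebbp were among those with both marks. Cbx7, a reader of H3K27me3, was the exception, with H3K27me3 alone at a fold of 3.83.

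By the ranking rule, the promoters with the strongest pair of marks, judged by the smaller −log10 q, were Gm10801, Aida, Brox and Gm10800. All 4 owed their rank to regions found in every list of the series. Below them came Adarb1 (H3K27ac −log10 q 130, H3K27me3 54.8), Foxj1, a factor of motile cilia (63.7 and 53.3), Ctif (74.0 and 51.7), Junb, a subunit of AP-1 (50.4 and 49.2), and the divergent pair Ccdc92 and Zfp664, which share their regions (107 and 45.3). At Adarb1, Foxj1, Ctif, Junb and Ccdc92 the H3K27ac summit lay upstream of the start. The H3K27me3 summit of these genes lay 613 to 1457 bp into the gene. At Zfp664 the arrangement was the reverse, with the H3K27ac summit inside the gene and the H3K27me3 summit upstream. Of all 2787 promoters with both marks, 660 had H3K27ac upstream and H3K27me3 inside the gene, so the arrangement of these genes was not the usual one. Among the most extensive H3K27me3 alone was that around Wnt10a (6472 bp within 10 kb on each side), Eomes (6286), Adamtsl5 (6201), Mast1 (5936), Foxl2 (5846), Espn and Hes2 (5451 each, in a shared stretch), Kcnk4 (5370) and Catsperz (5259). The strongest H3K27ac alone was at Exo1, a DNA repair exonuclease (fold 14.7, −log10 q 284), Lrr1, Nup205, Cmss1, Uchl3, Noct, Timm22, Mfn2, Ndc1 and Fancl, whose folds were between 11.5 and 14.7.

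Over the whole lists, irrespective of genes, 2765 H3K27me3 regions (19.9%, 19.3 to 20.6%) overlapped an H3K27ac region and 2718 H3K27ac regions (3.91%, 3.77 to 4.06%) overlapped an H3K27me3 region. They formed 2872 pairs and shared 1006 kb, which is 9.10% of the length under H3K27me3 and 2.29% of that under H3K27ac. In 1838 pairs the regions were staggered, in 640 the H3K27ac region lay inside the H3K27me3 region and in 394 the reverse. The median overlap was 287 bp, or 83.7% of the shorter region. The summits were a median of 410.5 bp apart, and in 26.98% of pairs neither summit lay in the other region. Regions of all 8 lists made up 46 of the overlapping H3K27me3 regions, and 15 of the 100 H3K27me3 regions with the highest fold were among them.

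Most of the overlap was at promoters. Of the H3K27ac regions within 2 kb of a coding start 10.3% (9.89 to 10.7%) overlapped H3K27me3, compared with 1.40% (1.30 to 1.51%) elsewhere, and for H3K27me3 regions the shares were 29.9% and 10.1%. Of the overlapping regions 74.3% of the H3K27ac and 74.4% of the H3K27me3 regions were at coding starts. Of the 100 H3K27ac regions with the highest fold 1 overlapped H3K27me3, whereas 43 of the 100 H3K27me3 regions with the highest fold overlapped H3K27ac. Of these 43, 15 were in all 8 lists and so overlapped by definition, while 0 of the 100 H3K27ac regions were. When each list was split by fold into 4 equal groups, the overlapping share of H3K27me3 regions rose from 8.07% to 31.8%, and that of H3K27ac regions from 2.52% to 4.90%, with no rise between the upper 2 groups. By −log10 q instead, the share of H3K27ac regions was 2.49%, 3.58%, 5.76% and 3.82%, so it was lower in the highest group than in the one before. The share of H3K27me3 regions rose by −log10 q from 14.3% to 25.1%, whereas the share of H3K27me3 promoters with H3K27ac fell along that measure. By length it rose from 12.1% to 27.5% for H3K27me3 and from 2.83% to 4.72% for H3K27ac regions.

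Away from any annotated gene start, 566 H3K27ac regions and 572 H3K27me3 regions overlapped the other mark. The 566 H3K27ac regions had a median CpG ratio of 0.519, against 0.221 for the 45456 distant H3K27ac regions that did not overlap. A CTCF region lay on 26.7% (23.2 to 30.5%) of them, against 8.22% (7.97 to 8.47%), and a HOX13 region on 34.3% (30.5 to 38.3%), against 28.2% (27.8 to 28.6%). Of the 566 regions, 22 were in all 8 lists and so held CTCF and HOX13 regions by definition. Without them, an alternative added after the values were seen, the shares were 23.7% (20.3 to 27.5%) for CTCF and 31.6% (27.9 to 35.6%) for HOX13, and the HOX13 interval included the 28.2% of the other regions. From the side of H3K27me3, HOX13 regions lay on 31.3% (27.6 to 35.2%) of the overlapping distant regions and on 12.7% (11.8 to 13.6%) of the others, and without regions of all 8 lists on 28.8% (25.2 to 32.7%) of the overlapping ones. Near coding starts the order was reversed for H3K27ac, where HOX13 regions lay on 20.8% of the overlapping and 37.2% of the other regions. Overlapping distant regions were longer than the others, with medians of 618 against 446 bp for H3K27me3 and 467 against 398 bp for H3K27ac. Near coding starts the overlapping H3K27ac regions were shorter (598 against 813 bp). The part of region length in these shares was not tested. Apart from regions of all 8 lists, the 10 strongest distant pairs by the smaller −log10 q, a ranking chosen after the values were seen, included 1 inside Stard13, 1 inside Tsks and 1 at 7670 bp from Meis1 (chr11:19026655-19027344, mm10, H3K27ac fold 5.28, H3K27me3 fold 2.95, with a HOX13 region). A pair 70163 bp from Irx5 (chr8:92286948-92287462) had folds of 4.74 and 3.81, also with a HOX13 region.

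Distances between the marks were asymmetric, and the lists differ in number. From an H3K27me3 region the nearest H3K27ac region was a median of 6400 bp away, and 34.6% lay within 1 kb. The median was 951 bp for H3K27me3 regions at coding starts and 11950 bp elsewhere. From an H3K27ac region the nearest H3K27me3 region was a median of 87904 bp away, and 46.3% were over 100 kb from any, compared with 5.93% in the other direction. These shares depend on the lengths of the lists. With the H3K27ac list reduced to the number of H3K27me3 regions, the median distance from H3K27me3 to H3K27ac was 56550 bp, and 34.7% of H3K27me3 and 40.5% of H3K27ac regions were over 100 kb from the other mark.

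**Figure D5:**
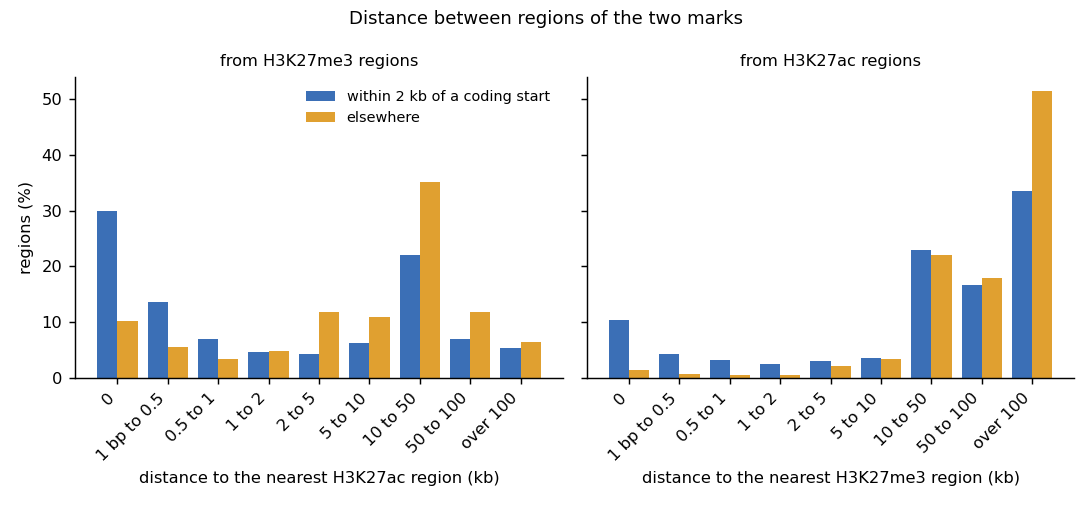
Percentage of regions (y axis) by distance to the nearest region of the other mark in kb (x axis, unequal bins, 0 for overlapping or touching regions), from H3K27me3 regions (left) and from H3K27ac regions (right), for regions within 2 kb of a coding start and elsewhere. On the left 29.9% of the regions at coding starts overlap H3K27ac; on the right the largest group is over 100 kb away.

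H3K27me3 regions less than 3 kb apart were joined into 8880 domains, of which 2513 (28.3%) held an H3K27ac region. The share was 32.9% for the 3548 domains of several regions and 25.2% for the rest. Domain lengths are those of joined calls. They depend on the 3 kb limit and on the local background of the caller, so they do not measure how far the mark extends. The longest domain (14.66 kb, 8 regions over 23.1% of its length, no H3K27ac) covered Hmx1, a homeobox gene of sensory neurons. It was followed by domains at Isl2 (10.1 kb), Slc32a1 (9.55 kb), Gsx1 (8.99 kb), Runx3 (8.91 kb), Dbx1 (8.46 kb), Tlx2 (8.38 kb) and Nkx2-4 (8.03 kb), and at 2 places without a coding start. Of these 10, only the domains at Isl2 and Runx3 held H3K27ac, in 1 and 2 regions. The called regions covered 20.7% of the domain length at Isl2 and 52.4% in the most filled of the 10.

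Other gene classes had fewer marks. Of 5305 lincRNA genes, 24.1% had H3K27ac alone, 4.20% H3K27me3 alone and 3.24% both. Of 2958 antisense genes, many of which share a start region with a coding gene, 7.47% had both, and of 9849 processed pseudogenes 0.396% did.

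In DFL, whose H3K27me3 list is shorter, 1726 of the 2787 promoters with both marks in PFL had both (61.9%), 652 had H3K27ac alone, 373 had H3K27me3 alone and 36 had neither. The single-mark classes matched more often, at 95.7% for H3K27ac alone and 81.8% for H3K27me3 alone. With 1 library per piece, depth and tissue cannot be told apart in these shares.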

How the data were processed

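ChIP-seq peak lists of H3K27ac and H3K27me3 from the proximal forelimb were analysed, with 1 library per mark and groups taken from the sample titles. Per the labels, the authors trimmed reads with cutadapt, aligned them with Bowtie to mm10, filtered them with SAMtools and called peaks with MACS2. Their methods state that peaks were called in each library without input and with 1 read kept per position. Both libraries were single-read, and by the stated read totals, which the peak lists do not hold, the H3K27ac library was the deeper. Each deposited line holds an interval, a summit, a fold enrichment, −log10 p and −log10 q. The fold is a ratio of summit pileup to background, and the authors let MACS2 take this background from the surroundings in the same library. The authors' lists ended at −log10 q of 1.305 for H3K27ac and 1.302 for H3K27me3.

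Lines of the same interval were collapsed to 1 region with the values of the highest summit. Pileup and background were solved from fold and −log10 p with a Poisson tail, and matched within 0.001 for 99.99% of H3K27ac and 100% of H3K27me3 regions. The 1st percentile of the background was 11.9 reads for H3K27ac and 4.75 for H3K27me3, so the H3K27me3 library was the shallower in this measure. Starts came from GENCODE vM21 basic transcripts of 21755 protein-coding genes, of which 54 without a unique symbol were left out. GC and CpG were read from GRCm38.p6, which has the coordinates of mm10, and promoter sequences came from RefSeq.

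No test was run, as each mark had 1 library. The members and gene lists were chosen with earlier results of these data known. Genes are named from those lists, and from rankings of 10 by the smaller −log10 q (both marks), by H3K27me3 length within 10 kb (H3K27me3 alone), by H3K27ac −log10 q (H3K27ac alone), by overlap length and by domain length. Alternatives were −log10 q of at least 5 or 10, fold of at least 3, lists of equal size, merging within 1 kb, leaving out regions found in all 8 lists, windows of 1 or 5 kb, the annotated 5′ end alone and a larger overlap. Functions for overlap, distance, promoter assignment and the solved background were tested on simulated data. Python 3.11.15, numpy 2.4.6, pandas 2.3.3 and pysam 0.24.0 were used. Most list members are covered by the counts alone, and some genes are not reported here.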

Additional observations from a re-analysis of the deposited data

How the results depend on the processing

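Counts and medians were taken as moved beyond 1.5 times the reported value, and shares beyond their own 95% interval. Of 72 recomputed values, 50 stayed within these limits and 22 moved. Of those that moved, 2 were the CTCF and HOX13 shares of promoters with both marks at the annotated 5′ end alone (46.7% and 44.6%), which left their intervals and were chosen after the values were seen. The others were counts and medians under stricter limits on the regions. Merging regions within 1 kb, leaving out regions found in all 8 lists, windows of 1 or 5 kb, the annotated 5′ end alone and a larger overlap moved no count or median past 1.5 times.

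H3K27me3 regions overlapping H3K27ac numbered 1592 with −log10 q of at least 5, 613 with at least 10, 1159 with fold of at least 3, and 434 with the H3K27ac list reduced to the number of H3K27me3 regions. H3K27ac regions overlapping H3K27me3 numbered 1563, 609, 1134 and 404 under the same settings. Promoters with both marks numbered 1036 with −log10 q of at least 10, 1768 with fold of at least 3 and 1068 with lists of equal size, and those with H3K27me3 alone 3313 with lists of equal size. Promoters with both marks in overlapping regions numbered 1207, 504, 920 and 362 under the 4 settings, and the median distance from H3K27me3 to H3K27ac was 10898, 20130, 10463 and 56550 bp. By construction each of these settings keeps fewer regions. Of the 2787 promoters with both marks, 1981 kept both with −log10 q of at least 5 and 1036 with at least 10.

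Each mark had 1 library, so the spread between embryos is not known. Absence from a list is not absence of the mark. No paired analysis was possible because no result comes from a test.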
